A study of Homo sapiens with 4 samples.

Results

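The library described here holds nascent RNA from Karpas 299 cells that received the solvent DMSO, without any stimulus. It is 1 of 4 libraries of the series, and it was chosen by its treatment label. Genes were ranked within it in 2 ways, by RPKM (reads per kilobase of counted sequence, scaled to the size of the library) and by estimated reads. The ranking took genes counted on their own strand over at least 300 bases, which left 21187 genes.

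Karpas 299 is an established human line of T cell origin, grown from an anaplastic large cell lymphoma with the ALK translocation. The lymphoma cells of every library came from this 1 line, so nothing here separates the line from the disease. Cells were exposed for 3 h to DMSO, to SM-164 (a bivalent antagonist of inhibitor of apoptosis proteins), to hamster ovary cells (CHO), or to CHO cells with the CD30 ligand on their surface (CD30L+ CHO). The first pair of conditions is labelled by drug treatment and the second pair by receptor activation. Whether RNA of the hamster cells entered the libraries of the second pair was not tested. Bromouridine was present for the last 30 min, and labelled RNA was pulled down with an antibody and sequenced (Bru-seq). Neither the DMSO concentration nor the SM-164 dose is given in the sources used here.

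Bru-seq samples RNA synthesised while the label is present, so introns are covered as well as exons, and a long gene collects reads along its whole transcribed length. Anaplastic large cell lymphoma cells are known for a surface rich in CD30, for AP-1 factors of the JUN and BATF families, for active STAT signalling, and for a T cell origin that their surface often no longer shows. In its ALK-positive form, a translocation commonly joins the 5′ part of NPM1 to the 3′ part of ALK, so that the NPM1 promoter drives the kinase.

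The DMSO library held 31030478 reads, against 26217590 to 45885631 in the other 3 libraries. Sense features took 78.5% of the DMSO reads, antisense features 3.56%, and stretches pooled over several genes 1.57%, while 16.4% lay outside the listed features. Each condition had 1 library, so no value below has a replicate check, and no p-value was computed. The 95% intervals given are exact Poisson or exact binomial intervals. They cover counting error alone: the libraries were amplified by PCR and carry no molecular identifiers, so reads may be copies of 1 molecule. In RNA from a whole culture, fewer cells that transcribe a gene and less RNA of it per cell cannot be told apart.

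A gene was called transcribed at an RPKM of at least 0.5, silent under 0.05 and low in between. Of the 21187 genes, 7977 (37.7%) were transcribed, 3922 (18.5%) were low and 9288 (43.8%) were silent. No read at all fell on 4558 genes, which at this depth allows up to 3 reads, a level of 0.0967 for a gene of 1 kb. That level is above the silent threshold, so 0 reads over a short gene do not settle that it was silent. The upper bound of the Poisson interval lay under 0.05 for 7244 genes. The median RPKM was 0.151 over all genes and 1.35 over transcribed genes. An RPKM of at least 10 was reached by 324 genes and of at least 100 by 17. Transcribed genes held 92.7% of the sense reads, low genes 6.86% and silent genes 0.431%.

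**Figure D1:**
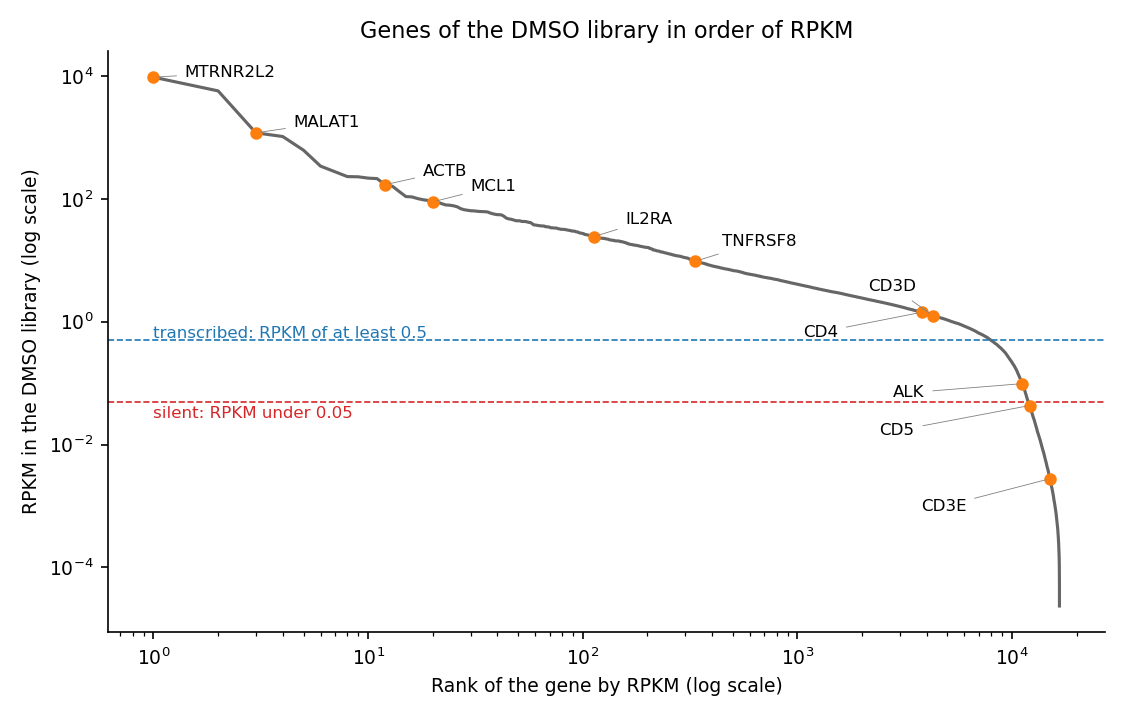
All genes with a read in the DMSO library, ordered by RPKM (x axis, rank, log scale; y axis, RPKM, log scale), with 11 genes marked in orange. MTRNR2L2 stood first at 9540.1, TNFRSF8 at 9.59 was well above the transcribed threshold of 0.5, ALK at 0.0980 lay between the 2 thresholds, and CD3E at 0.00278 lay below both.

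The highest RPKM belonged to short genes. MTRNR2L2 had 9540.1 (95% interval 9506 to 9574) and MTRNR2L8 had 5710.3. They belong to a family of nuclear genes that resemble the mitochondrial 16S ribosomal RNA, of which 9 were ranked here. The family also placed MTRNR2L1 (618), MTRNR2L3 (341), MTRNR2L6 (213) and MTRNR2L4 (159.6) in the top 20. Reads of near-identical copies, mitochondrial RNA included, may be assigned to these genes, so their counts are uncertain. Other members of the family were far lower, with MTRNR2L5 at 0.297 and MTRNR2L7 at 0.0216, both chosen after their values were seen. Together the 9 genes held 2.41% of the sense reads and 1.89% of the library.

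Noncoding RNAs of the nucleus came next. MALAT1, a long noncoding RNA of nuclear speckles, had an RPKM of 1185, RPPH1, the RNA of ribonuclease P, had 1033, and NEAT1, the scaffold of paraspeckles, had 217. Protein-coding genes in the top 20 by RPKM were mostly of the translation and cytoskeletal kind. EEF1A1, a translation elongation factor, had 277, and the ribosomal protein genes RPL21, RPL41 and RPS2 had 230.1, 96.6 and 94.1. TMSB4X and TMSB10, which bind actin monomers, had 228 and 107, and ACTB, cytoplasmic actin, had 169.6. The histone genes HIST1H1C and HIST1H4E had 130.2 and 100.9, the splicing factor gene HNRNPA1 had 109, and MCL1, a survival protein of the BCL2 family, had 89.3. RPL21 was counted over 8.16% of its length and HNRNPA1 over 30.0%, and both gene families have processed pseudogenes, so these 2 values rest on few unique bases.

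Ordering by reads gave another set. MALAT1 led with 320156 reads, 1.32% of all sense reads, followed by MTRNR2L2 with 306691 and MTRNR2L8 with 218479. The fourth was PDE4D, a cyclic AMP phosphodiesterase gene that was counted over 1519060 bases. It had 181368 reads, 0.746% of sense reads, at an RPKM of only 3.85. FNDC3B had 127027 reads, ELMO1, an engulfment and migration adaptor, had 83680, and IL1RAP, a coreceptor for interleukin 1, had 81637. C14orf101 had 71628 reads, and ARHGAP15, a Rac-specific GTPase activator, had 66810. The top 20 also held NR3C1 (the glucocorticoid receptor gene, 63922 reads), MCTP2, NCALD, HIPK2, TSHZ2, MBNL1, PGAP1, EEF1A1, EGFEM1P and TRERF1, the last of which had 43787 reads.

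Some genes high by reads are known mainly from other tissues, and they were chosen after their values were seen. RYR2, the calcium release channel of heart muscle, ranked 25 by reads with 40129 reads at an RPKM of 1.63. TP63, a p53 family member of squamous epithelium, ranked 37 with 34104 reads at an RPKM of 4.14. EGFEM1P, a pseudogene counted over 580969 bases, had 43815 reads at an RPKM of 2.43. All 3 were above the transcribed threshold in each of the 4 libraries. RYR2 had RPKM values of 1.63, 1.61, 0.774 and 0.573 in DMSO, SM-164, CHO and CD30L+ CHO, and TP63 had 4.14, 5.37, 3.12 and 5.08. Among the 100 genes with most reads, 2 were below 0.5 RPKM. These were RGPD and MIR4315, each deposited as 1 feature spread over several copies, with 19676860 and 14589665 counted bases, so their read ranks do not describe 1 gene.

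Reads were spread over many genes. The gene with most reads held 1.32% of the sense reads, the top 10 held 6.31% (95% interval 6.30 to 6.32), the top 20 held 8.49%, the top 100 held 17.6% and the top 1000 held 53.0%. The first 879 genes, 4.15% of all, reached 50% of the reads, and 4635 genes reached 90%. Leaving out the 9 MTRNR2L genes raised the first number to 921. In the order by RPKM the top 100 genes held 6.42% of the reads. The same 3 genes, MTRNR2L2, MTRNR2L8 and MALAT1, led both orders and held 3.48% of the reads, and below them the orders diverged.

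**Figure D2:**
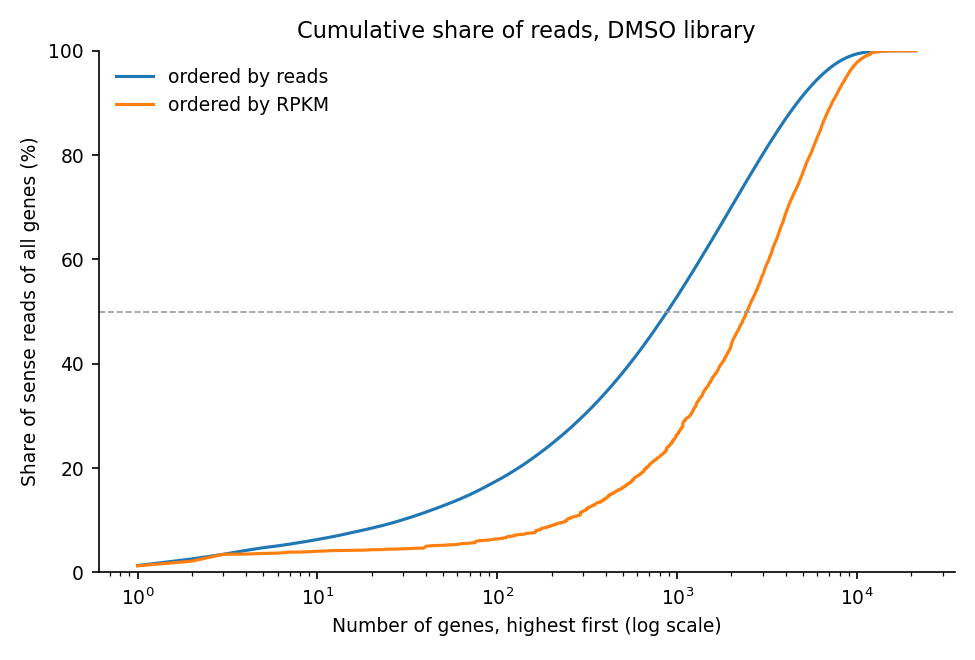
Cumulative share of the sense reads of the DMSO library (y axis, percent) against the number of genes taken from the top (x axis, log scale), ordered by reads (blue) or by RPKM (orange). The dashed line at 50% is crossed after 879 genes in the order by reads and after 2434 in the order by RPKM.

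The 2 orders differed in gene length. The 100 genes with the highest RPKM had a median of 2692 counted bases, and 79 of them were under 5 kb. Among them were 31 ribosomal protein genes, 20 histone genes of the HIST clusters and 7 MTRNR2L genes. The 100 genes with most reads had a median of 233972 counted bases, and 81 of them were counted over at least 100 kb. The sets had 9 genes in common, among them MALAT1, EEF1A1, NEAT1, C14orf101, PRDM1 and the MTRNR2L genes MTRNR2L1, MTRNR2L2 and MTRNR2L8. Across length deciles, the longest 10% of genes held 34.3% of the reads and the shortest 10% held 3.00%. The share of genes transcribed was 22.0% in the shortest decile, 45.6% in the seventh and 30.7% in the longest. The median RPKM of transcribed genes was 2.24 in the shortest decile and 1.17 in the longest.

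**Figure D3:**
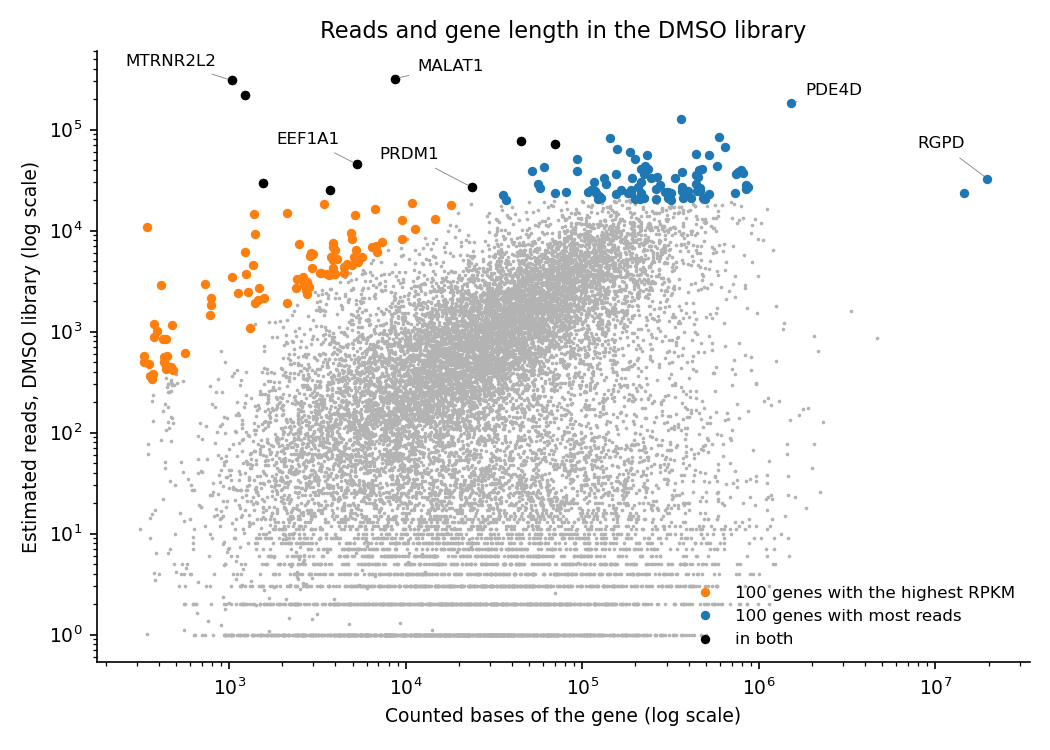
Estimated reads (y axis, log scale) against counted bases (x axis, log scale) for each gene of the DMSO library with at least 1 read. The 100 genes with the highest RPKM (orange) lie at the short end, the 100 with most reads (blue) lie mostly at 100 kb or more, and the 9 genes in both sets are black.

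Several lymphocyte genes counted over at least 10 kb had a high RPKM beside genes of RNA processing and metabolism. HNRNPA2B1, an RNA-binding protein of splicing, had 55.1. PRDM1, which encodes the repressor Blimp-1 of late lymphocyte differentiation, had 36.7, C14orf101 had 33.1, the glycolytic enzyme gene ENO1 had 31.9, and CD74, the MHC class II invariant chain, had 29.8. IL2RA, the alpha chain of the interleukin 2 receptor, had 24.3 and IRF4, a transcription factor of activated lymphocytes, had 24.2.

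The 4 markers given for this lymphoma were checked first. TNFRSF8, which encodes CD30 and lies at chr1:12123434-12204264 (hg19), had an RPKM of 9.59 (95% interval 9.47 to 9.71) and 24060 reads, rank 334 by RPKM and 69 by reads. JUNB, an AP-1 subunit, had 22.2 (20.9 to 23.4), and BATF3, a leucine zipper factor that pairs with JUN proteins, had 12.1 (11.7 to 12.4). All 3 were transcribed. ALK was low, with an RPKM of 0.0980 (0.0940 to 0.102), above that of 47.4% of genes. Its 2217 reads were spread over 728838 counted bases, chr2:29415640-30144477 (hg19). The deposited file gives 1 value for the whole gene, so the 3′ part that a fusion would transcribe cannot be read separately. NPM1, the nucleolar fusion partner, had 7.76.

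The promoters of TNFRSF8 and JUNB are shown because both markers were transcribed and each holds 1 of the motifs marked below. Other motifs were left unmarked. Both are RefSeq sequences of build GRCh38.p14, 250 bases before to 50 after the gene's start, at chr1:12063053-12063352 (plus strand) for TNFRSF8 and chr19:12791236-12791535 (plus strand) for JUNB. Capitals mark TGAGTCA, the AP-1 motif, in the first and TATAAA in the second. No promoter for BATF3 was at hand.
TNFRSF8: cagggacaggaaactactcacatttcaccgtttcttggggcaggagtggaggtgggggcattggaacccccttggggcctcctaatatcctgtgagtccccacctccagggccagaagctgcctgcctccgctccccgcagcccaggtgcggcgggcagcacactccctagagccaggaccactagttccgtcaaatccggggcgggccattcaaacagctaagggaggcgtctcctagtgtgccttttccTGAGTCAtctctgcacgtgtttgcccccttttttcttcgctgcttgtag
JUNB: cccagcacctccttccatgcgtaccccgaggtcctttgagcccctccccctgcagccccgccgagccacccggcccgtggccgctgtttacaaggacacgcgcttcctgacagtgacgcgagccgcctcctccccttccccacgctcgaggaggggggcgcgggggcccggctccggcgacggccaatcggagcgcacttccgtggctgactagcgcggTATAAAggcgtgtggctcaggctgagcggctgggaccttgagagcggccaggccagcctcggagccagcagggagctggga
The TNFRSF8 motif begins at base 2 of the gene, counting the first base as 1, and the sequence holds 11 CpG dinucleotides. The JUNB motif begins at base -31, and the sequence holds 29 CpG dinucleotides. TGACTCA or TGAGTCA, the same motif on either strand, occurred in 3.62% of the 14934 promoters compared, and TATAAA on either strand in 9.25%. Neither match shows that a factor binds there.

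Of 26 genes in a list of the lymphoma's known program, 22 were transcribed, against 37.7% of all genes, and the median RPKM was 7.25 against 0.151. This list, like the others, was chosen with earlier results of these data known, so the share is a description only. SOCS3, a feedback inhibitor of STAT signalling, was highest at 37.1, and PRDM1 followed at 36.7. GAS1, a membrane protein linked to growth arrest, had 31.9, IL2RA had 24.3 and IRF4 had 24.2. The cytokine genes IL22, IL26 and IL10 had 20.4, 10.1 and 8.67, and IL1RAP had 18.4. TIMP1, a metalloproteinase inhibitor, had 6.74, CLU, the chaperone clusterin, 5.64, CEBPB, a transcription factor, 5.49, CD274, which encodes PD-L1, 5.39, SERPINA1, a protease inhibitor, 4.41, and STAT3, the kinase-activated transcription factor, 3.31. BATF had 1.50, and the phosphatase gene PTPN12 and the survival gene BCL2A1 were nearest to the threshold at 0.875 and 0.570, the latter with an interval (0.490 to 0.658) that includes it. Below it lay the mucin gene MUC1 at 0.453, TMOD1 at 0.347 and ALK. MMP9, a matrix protease gene, had 0 reads over 7654 bases, where 3 reads would be an RPKM of 0.0126.

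**Figure D4:**
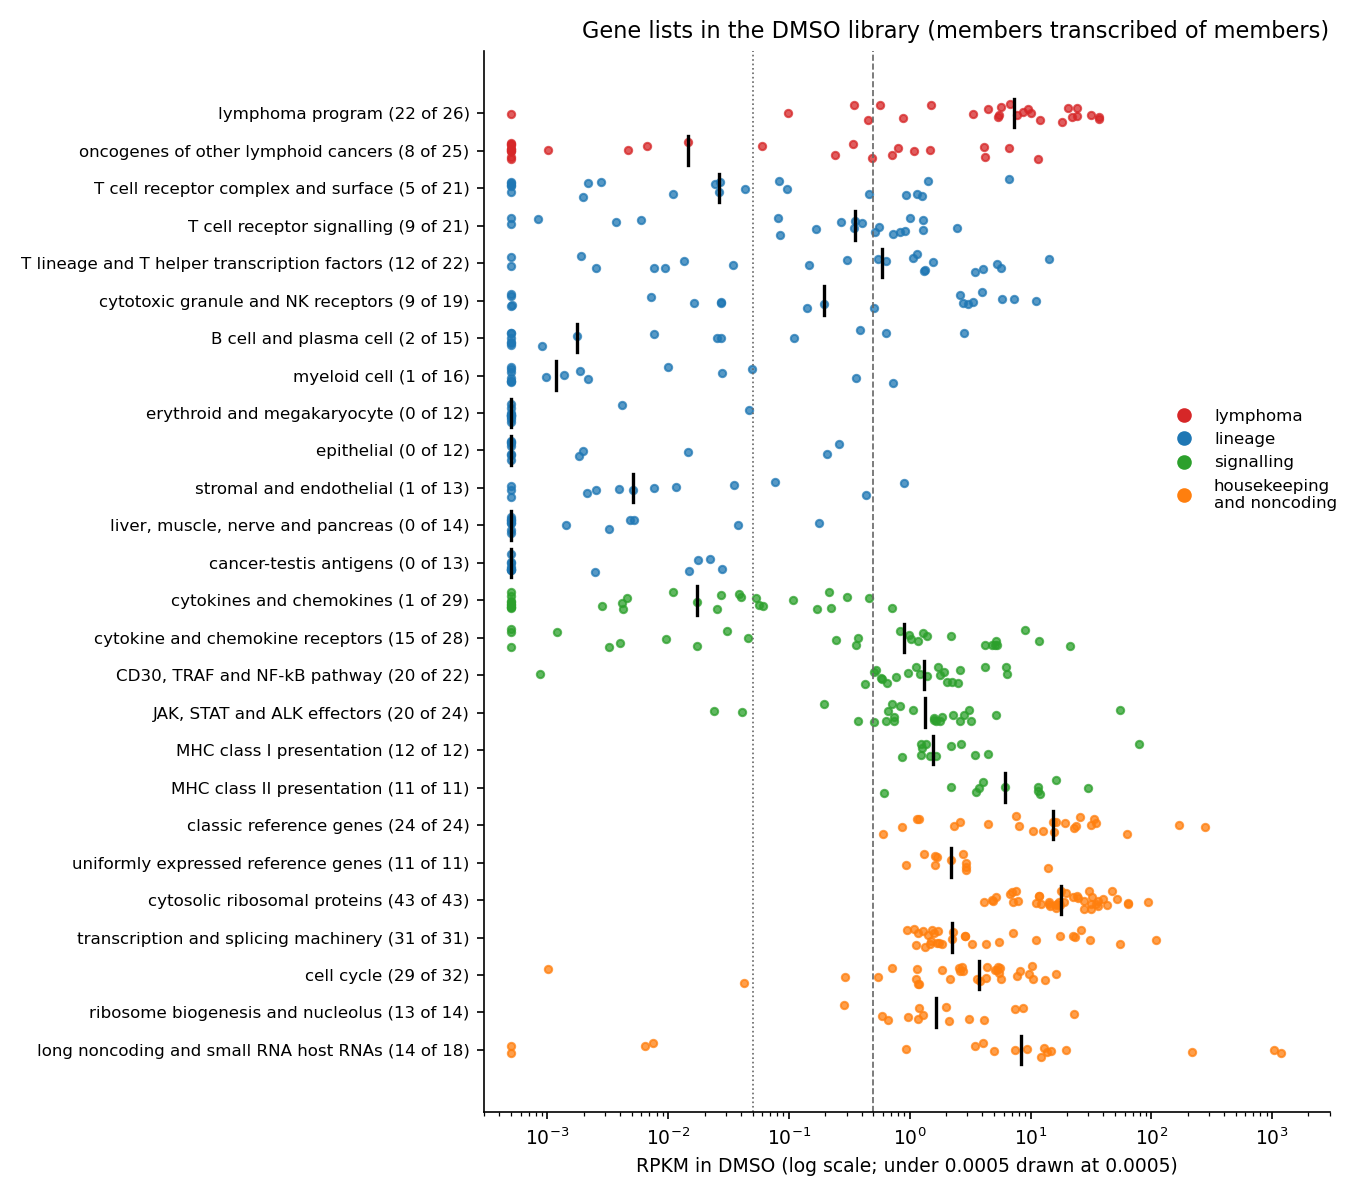
RPKM in the DMSO library (x axis, log scale, values under 0.0005 drawn there) of every member of 26 gene lists, with the list's median as a black bar and lines at 0.05 (dotted) and 0.5 (dashed). The lymphoma program has 22 of 26 members at or above the dashed line, the T cell receptor complex 5 of 21, the erythroid list 0 of 12 and the ribosomal proteins 43 of 43.

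The T cell receptor complex and other T cell surface genes were mostly silent. Of 21 genes, 5 were transcribed (23.8%, against 37.7% of all genes), 3 were low and 13 were silent, with a median RPKM of 0.0261. Over all genes, 43.8% were silent. The 5 were PTPRC, the pan-leukocyte phosphatase CD45, at 6.65 (95% interval 6.57 to 6.73), CD4 at 1.42 (1.35 to 1.50), CD3D at 1.25 (1.06 to 1.48), CD247, the zeta chain, at 1.14 (1.10 to 1.18), and SIT1 at 0.937 (0.691 to 1.24). The CD3 genes were in different states. CD3G had 0.0819 from 24 reads, and CD3E, a chain of every complete receptor, had 1 read over 11596 bases. CD2, an adhesion receptor of T cells, also had 1 read, over 14766 bases. CD5 had 0.0431 and CD8A 0.0244, while CD7, CD27, CD52, PTCRA and PDCD1 had none. ICOS, a costimulatory receptor, was just under the threshold at 0.461.

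**Figure D5:**
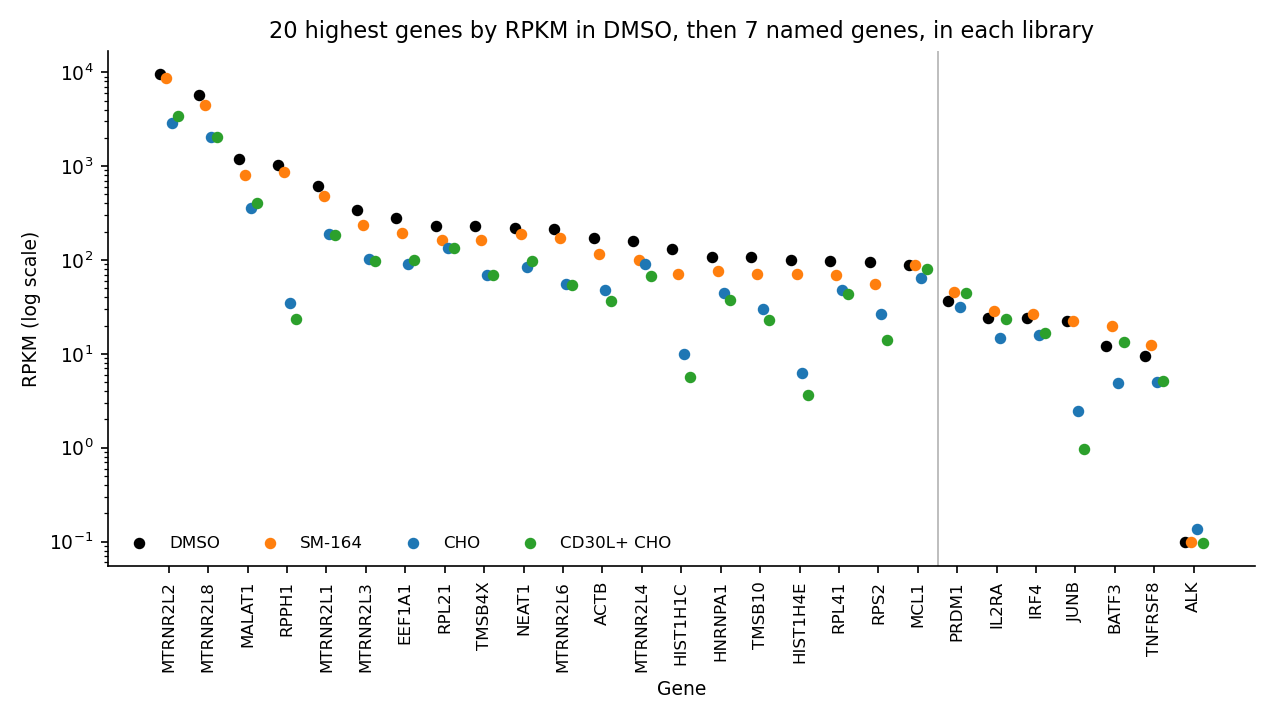
RPKM (y axis, log scale) in the DMSO (black), SM-164 (orange), CHO (blue) and CD30L+ CHO (green) libraries for the 20 genes with the highest RPKM in DMSO and, right of the line, 7 named genes. Of the genes drawn, RPPH1, HIST1H1C, HIST1H4E and JUNB lie furthest apart between the DMSO and the co-culture libraries, and ALK is near 0.1 in all 4.

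Of 21 genes of T cell receptor signalling, 9 were transcribed (42.9%, near the 37.7% of all genes), 7 were low and 5 were silent, with a median RPKM of 0.350. ZAP70, the kinase recruited by the zeta chain, had 2.48, but it was counted over 9.67% of its length. The phospholipase gene PLCG1 and the adaptor gene LCP2 had 1.29 each, and PTPN22, a phosphatase, had 0.921. LCK, the kinase that starts the cascade, had 0 reads over 34927 bases, where 3 reads would be an RPKM of 0.00277. The adaptor gene GRAP2 and the exchange factor gene RASGRP1 were also silent, at 0.000458 and 0.000840. LCK had 0 RPKM in SM-164 and CD30L+ CHO and 0.00312 in CHO, so it was silent in all 4 libraries.

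Of 22 transcription factors of T cell lineages, 12 were transcribed (54.5%, against 37.7% of all genes), 2 were low and 8 were silent. ID2, an inhibitor of E proteins, had 14.1, RUNX3, a factor of cytotoxic cells, had 5.67, and IKZF1, the lymphoid factor Ikaros, had 5.31. AHR, a ligand-activated factor of IL22-producing cells, had 3.48, and RORA had 1.57. TBX21, the factor of T helper 1 cells, had 1 read, and 3 others were chosen after their values were seen: GATA3, of T helper 2 cells, had 0.0346, FOXP3, of regulatory T cells, had 0.0134, and BCL11B had 0.00946. IKZF2, LEF1 and MAF were the lowest, at 0.00191, 0.000265 and 0. In DMSO, SM-164, CHO and CD30L+ CHO, AHR had 3.48, 4.04, 6.25 and 9.09, all transcribed, and GATA3 had 0.0346, 0.0151, 0.188 and 0.0825, silent in the first pair and low in the second.

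Cytokine genes outside the lymphoma list were nearly all below the threshold. Of 29, 1 was transcribed (3.45%, against 37.7% of all genes), TNF at 0.711. IL7 had 0.457, LIF 0.304, IL1A 0.225 and CCL5, a chemokine, 0.214. IL2, IL4, IL5 and IL17A, which define helper subsets, had 0 reads, and IL17F had 1. IL22, IL26 and IL10, counted in the lymphoma list, were therefore the cytokine genes with the highest levels among those listed. Of 28 receptor genes, 15 were transcribed (53.6%, against 37.7% of all genes), with a median RPKM of 0.904. IL1R1 and IL1R2, receptors of interleukin 1, had 21.1 and 9.01 but were counted over 18.9% and 4.31% of their length. IFNGR1, of the interferon gamma receptor, had 11.9, IL23R, the receptor for the T helper 17 cytokine interleukin 23, had 5.27, and the chemokine receptor gene CCR7 had 5.20. CXCR5, CCR8 and IL9R had 0 reads.

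Of 19 genes of the cytotoxic granule and natural killer receptors, 9 were transcribed (37.7% of all genes were), 2 were low and 8 were silent, with members of both kinds on each side. The serine protease genes GZMA and GZMB had 11.01 (95% interval 10.6 to 11.4) and 5.81 (5.34 to 6.29), and PRF1, which encodes the pore former perforin, had 7.33 (6.92 to 7.75). SRGN, the granule proteoglycan, had 4.00 and FASLG, the Fas ligand, 3.33. NKG7 had 3.02, and KLRD1, the receptor subunit CD94, was at the threshold with 0.501 (95% interval 0.434 to 0.576). Its antisense RPKM was 0.954, so its call is lost, and 8 genes are left, when sense must exceed antisense. GNLY, the granule protein granulysin, had 1 read, GZMM and CTSW were silent at 0.0273 and 0.0164, and GZMH, GZMK and KLRF1 had 0. In DMSO, SM-164, CHO and CD30L+ CHO, GZMA had 11.01, 8.34, 3.97 and 3.16, GZMB had 5.81, 4.56, 2.66 and 1.93, and PRF1 had 7.33, 5.67, 2.87 and 1.89. DMSO was the highest of the 4 for each of these 3 genes, and all 3 were above the transcribed threshold in every library.

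Genes of other lineages were nearly all silent. Of 95 genes in lists for B cells, myeloid cells, erythroid cells and megakaryocytes, epithelium, stroma and endothelium, 4 further tissues and the testis, 4 were transcribed (4.21%, against 37.7% of all genes). A further 8 were low and 83 were silent, where 43.8% of all genes were silent. The 4 were POU2AF1, a B cell coactivator, at 2.80 (95% interval 2.69 to 2.91), COL6A3, a collagen VI chain, at 0.895 (0.861 to 0.931), CSF1R, the macrophage growth factor receptor, at 0.733 (0.694 to 0.773), and BLK, a B cell kinase, at 0.636 (0.603 to 0.670). Each was also at or above 0.5 in SM-164, and in CHO and CD30L+ CHO with the exception of COL6A3, which had 0.362 and 0.155.

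Many markers of these lineages were at or near 0, but not all. The myeloid marker CSF1R was transcribed at 0.733, as given above, and the markers named last below were low. MS4A1 of B cells had 0 reads, as had CD14 of monocytes, HBB and KLF1 of red cells, KRT19 of epithelium, and DCN, VWF and CDH5 of stroma and endothelium. CD79A had 0.00758, SPI1, the myeloid and B cell factor PU.1, had 0.00136, EPCAM had 0.00181 and CDH1 had 0.00197. EBF1, the B lineage factor, was low at 0.111. LYZ, PECAM1 and CD37, each found on or in several kinds of blood cell, were low at 0.356, 0.434 and 0.385. KRT8 and KRT18, simple keratins, were low at 0.261 and 0.208, from 64 and 26 reads. ALB was low at 0.177 from 94 reads, and the stromal gene COL1A1 was low at 0.0761 from 14 reads. Of 13 cancer-testis antigens 0 were transcribed, and the highest was CTCFL at 0.0277.

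The listed antigen presentation genes were all transcribed, against 37.7% of all genes. Of the MHC class I list, 12 of 12 were, led by B2M, the shared light chain, at 78.7, then HLA-B at 4.44. The immunoproteasome gene PSMB10 had 2.63, HLA-E had 2.21, and NLRC5, the transactivator of class I genes, had 0.865, the lowest, below TAPBP and HLA-C at 1.24 each. Of the MHC class II list, 11 of 11 were transcribed, with a median RPKM of 6.17. CD74 had 29.8, HLA-DQA1 16.4, HLA-DRB1 11.9, HLA-DQB1 11.6 and HLA-DRA 11.6. CIITA, the transactivator of class II genes, had 6.17 (95% interval 6.05 to 6.30), and the lowest were HLA-DPB1 at 3.53, HLA-DMB at 2.19 and HLA-DOA at 0.615. Counts of the polymorphic HLA genes are uncertain, since reads that differ from the reference may be lost and reads of related genes may be shared.

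Of 22 genes of CD30, TRAF and NF-kB signalling, 20 were transcribed (90.9%, against 37.7% of all genes), 1 was low and 1 was silent. Their median RPKM was 1.30, against 0.151 over all genes. TNFAIP3 and BIRC3, feedback regulators of the pathway, had 6.32 and 6.29, NFKBIA, the inhibitor of NF-kB dimers, had 4.19, BIRC2, which encodes c-IAP1, had 2.60, and MAP3K14, the kinase of the noncanonical arm, had 2.52. CHUK, a kinase of the IKK complex, was at the threshold with 0.510, and IKBKG, its regulatory subunit, was low at 0.430. TNFSF8, the gene of CD30L, was silent at 0.000865, while its receptor TNFRSF8 was at 9.59. Of 24 JAK, STAT and ALK effector genes, 20 were transcribed (83.3%, against 37.7% of all genes). SOCS1, an inhibitor of JAK kinases, had 5.15, PIM1, a serine kinase, had 3.23, JAK1 had 3.10 and JAK3 had 2.80. PTPN6, the phosphatase SHP-1, was low at 0.197, and IRS1 and PIK3CD were silent at 0.0406 and 0.0237.

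Of 25 oncogenes of other lymphoid cancers, 8 were transcribed (32.0%, near the 37.7% of all genes), 4 were low and 13 were silent, with a median RPKM of 0.0145. MYB, a regulator of lymphoid progenitors, had 11.6, MYC had 6.67, BCL6, a repressor of germinal centre cells, had 4.17, TP63 had 4.14, and BCL10, an adaptor in NF-kB activation, had 1.48. The leukaemia genes TLX1, TAL1, LMO2 and HOXA9 had 0 reads. These 4 were chosen from the 9 members with 0 reads after their values were seen.

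Housekeeping genes that code for proteins were almost all transcribed, 151 of 155 over 6 lists, or 97.4%, against 37.7% of all genes. Of the classic reference genes, 24 of 24 were, ranging from EEF1A1 at 277, ACTB at 169.6, GAPDH, a glycolytic enzyme, at 62.9, PPIA at 34.6 and HSP90AB1, a chaperone, at 33.7, to lower levels such as GUSB at 1.15 and SDHA at 0.857. A second list, of genes known for even expression over tissues, had 11 of 11 transcribed, with PSMB4, a proteasome subunit, at 13.8 and the other 10 between 0.925 (REEP5) and 2.95 (VCP). A list of ribosomal protein genes, which did not hold RPL21 and RPL41, had a median of 18.0, and 43 of 43 were transcribed. Toward the upper end of the list were RPS2 at 94.1, RPL7 at 63.6, RPS6 at 51.7 and RPL7A at 47.2. Toward its lower end were RPS19 at 4.88 and RPS24 at 4.78. Many ribosomal protein genes have processed pseudogenes, so how their reads were shared is uncertain.

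Transcription and splicing genes were transcribed in 31 of 31 cases, against 37.7% of all genes, at a median RPKM of 2.24. Splicing regulators led them, with HNRNPA1 at 109, HNRNPA2B1 at 55.1, SRSF1 at 31.3, SRSF3 at 26.2 and SRSF2 at 23.2. The basal transcription and splicing genes GTF2H1, U2AF2 and POLR2E, a subunit of RNA polymerase II, were lowest at 1.13, 1.09 and 0.951. Of 14 ribosome biogenesis genes, 13 were transcribed (92.9%, against 37.7% of all genes). The nucleolar protein genes NCL, NOP56 and GNL3 had 22.9, 8.73 and 7.45, followed by NOP58 at 4.12 and DKC1 at 3.10. WDR12 and POLR1A were nearest to the threshold at 0.661 and 0.585, and BOP1 was low at 0.283.

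Cell cycle genes were transcribed in 29 of 32 cases (90.6%, against 37.7% of all genes), with a median RPKM of 3.71. TOP2A, the topoisomerase of dividing cells, had 16.2, RRM2, a subunit of ribonucleotide reductase, had 13.1, MKI67, the Ki-67 antigen, had 10.5, and PCNA, the replication clamp, had 9.62. BUB1, a mitotic checkpoint kinase, had 10.3, from 8.70% of its length. The 3 exceptions were CDKN1A, a cyclin-dependent kinase inhibitor, low at 0.289, and a kinase and a cyclin of G1 phase. CDK6, the kinase, was silent at 0.0423, and CCND2, the cyclin, had 1 read over 31621 bases. CDK6 had 0.0423, 0.0509, 0.0760 and 0.169 in DMSO, SM-164, CHO and CD30L+ CHO, so it was low in the other 3 libraries.

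Noncoding RNA genes of known function were transcribed in 14 of 18 cases (77.8%, against 37.7% of all genes). Besides MALAT1, RPPH1 and NEAT1, the hosts of small nucleolar RNAs SNHG1 and SNHG5 had 19.8 and 14.7. HOTAIR and H19, which are RNAs of developmental programs, had 0 reads, and MEG3 had 0.00648. Of the microRNA hosts, MIR17HG, at chr13:92000074-92006829 (hg19), had an RPKM of 3.49 (95% interval 3.23 to 3.76) from 680 reads, and 3.74, 3.98 and 3.77 in SM-164, CHO and CD30L+ CHO. MIR155HG, the host of a microRNA of activated lymphocytes, at chr21:26934457-26947480 (hg19), had 3 reads, an RPKM of 0.00746 (0.00154 to 0.0218), and was silent in all 4 libraries. VMP1, whose region runs into the microRNA gene MIR21, had 7.98 and was chosen after its value was seen.

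The mature microRNAs of the MIR17HG, MIR21 and MIR155HG loci are shown to set the transcribed hosts beside the silent one. The sequences are RefSeq's (GRCh38.p14), written 5′ to 3′, and capitals mark the seed, bases 2 to 8, which pairs with target RNAs.
miR-17-5p: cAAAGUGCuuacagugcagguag
miR-20a-5p: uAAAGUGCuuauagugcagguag
miR-18a-5p: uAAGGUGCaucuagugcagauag
miR-19a-3p: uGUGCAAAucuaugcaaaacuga
miR-19b-3p: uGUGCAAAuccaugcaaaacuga
miR-92a-3p: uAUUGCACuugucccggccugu
miR-21-5p: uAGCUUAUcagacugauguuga
miR-155-5p: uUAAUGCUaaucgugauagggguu
MiR-17-5p and miR-20a-5p share their seed, as do miR-19a-3p and miR-19b-3p, while miR-18a-5p and miR-92a-3p each have their own. The first 6 sequences lie in the transcribed MIR17HG locus, and miR-155-5p lies in the silent MIR155HG. Bru-seq reads nascent transcripts, so these values say nothing of the amounts of mature microRNA.

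Promoter sequence was compared with transcription for 14934 protein-coding genes outside chromosome 8, using the RefSeq windows of 300 bases described above. They covered 87.8% of transcribed, 84.1% of low and 79.5% of silent coding genes. A promoter was called CpG-rich at a GC content of at least 50% and an observed over expected CpG ratio of at least 0.6. Of 9751 genes with a CpG-rich promoter, 55.7% were transcribed, and of 5183 with another promoter, 18.4% were. Among transcribed genes alone the median RPKM was 1.38 with a CpG-rich promoter and 1.30 without, so the classes differed in how many genes were transcribed more than in the level. TATAAA lying wholly between 45 and 16 bases before the start was counted. It occurred in 0.747% of genes at an RPKM of 0.5 to 1 and in 14.4% of the 250 genes at 10 or more. Histone genes made up 31 of those 250, and 58.1% of them had it. Without them the share was 8.22%. The motif was not confined to transcribed genes: it lay there in 1.66% of transcribed genes, 6.55% of silent genes and 10% of silent genes with 0 reads.

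By chromosome, the share of reads was set against the share of counted bases. Among the autosomes, chromosome 5 had the highest ratio, 1.64, followed by chromosome 11 at 1.38. Chromosomes 4 and 10 had the lowest of the autosomes, 0.611 and 0.627. Without MALAT1 and the MTRNR2L genes, chromosome 11 came to 0.939 and chromosome 5 to 1.45. PDE4D and NR3C1, both in the top 20 by reads, lie on chromosome 5.

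The order of genes in DMSO was closest to that of the SM-164 library, which is also labelled by drug treatment. Of the 100 genes with the highest RPKM in DMSO, 90 were among the top 100 in SM-164, 65 in CHO and 54 in CD30L+ CHO. By reads the numbers were 93, 79 and 70. Of the genes transcribed in DMSO, 96.0%, 93.5% and 86.2% were also transcribed there. All 4 libraries shared 54 of the top 100 by RPKM, 6792 transcribed genes and 8655 silent genes. Short genes of the top 20 could lie far apart between libraries. RPPH1 had an RPKM of 1033 in DMSO, 860.2 in SM-164, 34.8 in CHO and 23.6 in CD30L+ CHO, and HIST1H1C had 130.2, 71.2, 9.95 and 5.68. JUNB had 22.2, 22.3, 2.45 and 0.974, BATF3 had 12.1, 19.8, 4.94 and 13.3, and TNFRSF8 had 9.59, 12.3, 4.97 and 5.10. MCL1 was closer, with 89.3, 87.4, 64.6 and 80.7. ALK had 0.0980, 0.0988, 0.137 and 0.0966. With 1 library each, condition, experiment and library cannot be told apart in these values.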

How the data were processed

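Bru-seq libraries of Karpas 299 cells were used, 1 per condition. The submitters' processing notes name build hg19 and the tools TopHat 1.4.1, Bowtie 0.12.8, bedtools 2.16.2 and CASAVA 1.8.2. Which gene annotation was counted is not given there. The protocol in the labels marks strand only for certain samples and does not say which.

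The authors deposited, per feature, an estimated count over exons and introns, a signal per counted base and an RPKM scaled by 1 library total. Of the non-zero estimated counts in DMSO, 67.6% lay within 0.001 of a whole number. Counts were rounded only for intervals. Reads shared by copies or overlapping genes may have been split: 1548 genes overlap another on their strand, 650 were counted over under 50% of their length, and 41 transcribed genes had as much antisense as sense signal.

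Sense features of at least 300 counted bases were kept, and where a symbol was listed more than once the entry with the most counted bases stood for it. No test was run. Named genes were drawn from the 20 highest by RPKM and by reads, the 4 markers, the lymphoma list, the 5 highest and 3 lowest of every other list, each transcribed gene of another lineage, and the 3 highest features under 300 bases. Any other gene, lineage markers apart, was chosen after its value was seen. The members and the 26 lists were chosen with earlier results of these data known. Of 530 listed genes, 527 could be ranked.

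In simulated counts for the 21187 genes of the DMSO library, 50 genes were set at each RPKM of 1, 2, 4 and 8. Of these, 100% were called transcribed, and 98.1% of the other genes kept their state. Every level set lay above the transcribed threshold, so the 100% cannot show how calls near that threshold behave. The 98.1% has a limit too. The other genes were simulated around their own observed reads, and 4558 of the 21187 genes had no read. Such a gene, unless it was among those set, stayed without reads and could not change state. The 98.1% therefore cannot show how stable the silent calls are. The alternatives were other thresholds, minimum lengths, overlap filters, ranking and denominators. The scripts ran in Python 3.11.15 with pandas 2.3.3, numpy 2.4.6, matplotlib 3.10.9 and scipy 1.17.1. Some genes are not reported here.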

Additional observations from a re-analysis of the deposited data

Results flagged for a closer look

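Signal also lay in features that the ranking left out. RMRP, the RNA of ribonuclease MRP, was counted over 268 bases and had an RPKM of 602 in DMSO, 318 in SM-164, 29.4 in CHO and 5.82 in CD30L+ CHO. MIR4461 had 257 in DMSO and 359, 90.4 and 96.4 in the others, and SCARNA5, a small Cajal body RNA, had 54.4, against 36.5, 6.10 and 7.29. Together the 1671 sense features under 300 bases held 0.0381% of the library.

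Antisense features held 3.56% of the library, and 416 of 20348 with at least 300 counted bases had an RPKM of at least 0.5. The highest was opposite UNC45B, a muscle chaperone gene, with 271575 reads and an RPKM of 211, where the sense strand had 0. HSP90AB2P had 65.3 antisense and 62.0 sense, and GPR15 had 16.8 and 0.647. Stretches pooled over several genes held 1.57%. No control library without label was among the samples, so these values have no background measured the same way.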

How the results depend on the processing

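No paired analysis was possible because each condition had 1 library and no test was run. The number of transcribed genes was 7977, and 5248 when the threshold was raised to an RPKM of 1. The share of sense reads in the 100 genes with most reads was 17.6%, and 17.7% with a minimum of 1000 counted bases, 17.5% over genes that overlap no other, 6.42% when genes were ranked by RPKM, 13.8% of the library total, and 15.97% without the MTRNR2L genes. The last setting was chosen after seeing the data, as was a minimum of 10000 counted bases, which left 5572 silent genes because fewer genes were counted. The number of genes that hold 50% of the reads was 879, and 2434 when ranked by RPKM. Of 182 list counts under the alternatives, 168 stayed within 1.5 times the first count. Among the others, T cell receptor signalling fell from 9 to 3, and the NF-kB and JAK lists fell from 20 to 13 each at an RPKM of 1, and 27 of the 43 ribosomal protein genes were left when overlapping genes were dropped. Depth limits the silent class: 9288 genes were called silent, and 7244 when the upper bound of the Poisson interval had to lie under 0.05. A gene of 300 bases needs 4.65 reads to be called transcribed.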
